A study of Mus musculus with 12 samples.

Results

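The 9 genes described here encode transcription factors that establish and maintain the identity of the hepatocyte, the main cell of the liver. They are Hnf4a, the forkhead factors Foxa1, Foxa2 and Foxa3, the leucine zipper factors Cebpa and Cebpb, and Onecut1, Nr5a2 and Prox1. They were taken by gene symbol, with earlier results of these data known, and all 9 were found among the 57010 genes of the table. All 9 also reached 1 TPM (a transcript's abundance relative to its length, expressed as a share of all transcripts in the library) in at least 6 of 12 libraries, and so belonged to the 9980 genes tested.

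The libraries came from livers of 12 wild-type male C57BL/6J mice on a normal diet, 1 library per mouse, which were 6 weeks old at the start. The 6 control mice are labelled as untreated. The 6 mice of the other group, called selenium here, received the food fungus Aspergillus oryzae A02 grown with selenium, by gavage in saline each day at 0.5 mg selenium per kg. No library of mice given the fungus without selenium was analysed here, so the fungus and the selenium cannot be told apart, and whether controls were gavaged with saline is not stated. The design text gives 8 weeks of treatment and the sample descriptions 14 weeks. A label also names hepatocytes, but the tissue is given as liver.

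As background, these factors bind each other's promoters as well as those of liver genes, which makes them a mutually reinforcing network. FOXA proteins open compacted chromatin so that other factors can bind. HNF4A is a nuclear receptor that drives genes of lipoproteins, clotting factors and drug metabolism, and C/EBP-alpha drives albumin, the urea cycle and gluconeogenesis. C/EBP-beta, made from an mRNA without introns that gives activating and inhibitory proteins from different start codons, is induced by inflammation, fasting and cyclic AMP. ONECUT1 (HNF6) acts in hepatocytes and bile duct cells, NR5A2 (LRH-1) in bile acid synthesis, and PROX1 as a partner of HNF4A and NR5A2 that restrains bile acid synthesis.

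The tissue label was checked first. All 24 hepatocyte markers examined were among the tested genes, and their summed level was 106394 to 131053 TPM in controls and 99936 to 152542 TPM with selenium. Markers of other cells that can hold transcripts of these factors summed to far less. They reached 35.1 to 286 TPM in controls and 23.8 to 141 TPM with selenium for the 13 markers of bile duct cells, and 83.6 to 183 and 72.9 to 337 TPM for the 11 markers of Kupffer cells, the liver's macrophages. Most of the upper ends for bile duct cells was the marker Spp1, at 266 TPM in control 5 and 129 TPM in selenium 3. Other bile duct markers were mixed there. Sox9 was also the highest of its group in these libraries, at 2.74 and 2.54 TPM. Krt19 was at 0.60 and 0.82 TPM in them, and at 3.25 TPM in control 6. The upper ends therefore do not measure bile duct cells alone. None of these bile duct or Kupffer cell markers was at 0 in all libraries. In bulk tissue, fewer cells of a type and less RNA per cell cannot be told apart. The clock gene Dbp also set 4 libraries apart, controls 5 and 6 and selenium 1 and 5, with 15.7 to 53.6 TPM against 0.720 to 1.44 TPM in the other 8, and the labels give no time of sampling. Nr1d1, another clock gene, differed by group among those 8, at 1.04 to 2.92 TPM in controls and 8.60 to 18.1 TPM with selenium. Libraries with a similar Dbp level were therefore not matched for the clock.

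Across all 12 libraries the levels of the 9 factors spanned more than an order of magnitude. Hnf4a had the highest mean, 94.1 ± 22.5 TPM (SD, n = 12), followed by Cebpa at 69.6 ± 29.0 TPM, Foxa3 at 20.1 ± 4.32 TPM and Cebpb at 15.8 ± 7.18 TPM. Prox1 (7.84 ± 1.93 TPM), Nr5a2 (7.57 ± 1.88 TPM), Foxa2 (5.95 ± 1.30 TPM), Foxa1 (3.17 ± 0.650 TPM) and Onecut1 (1.89 ± 2.35 TPM) were lower. TPM is per transcript length, so these levels can be set side by side. Cebpa lay above Foxa3, and Foxa2 above Foxa1, in 12 of 12 libraries. Other neighbours in this order changed places: Hnf4a lay above Cebpa in 9 libraries, Nr5a2 above Foxa2 in 8 and Prox1 above Nr5a2 in 6. The libraries with Cebpa above Hnf4a, control 5 and selenium 1 and 5, all had high Dbp. Differences in level between neighbours were not tested. Foxa3 and Cebpb changed places with the group, since Foxa3 lay above Cebpb in 1 of 6 controls and in 6 of 6 selenium libraries.

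**Figure D1:**
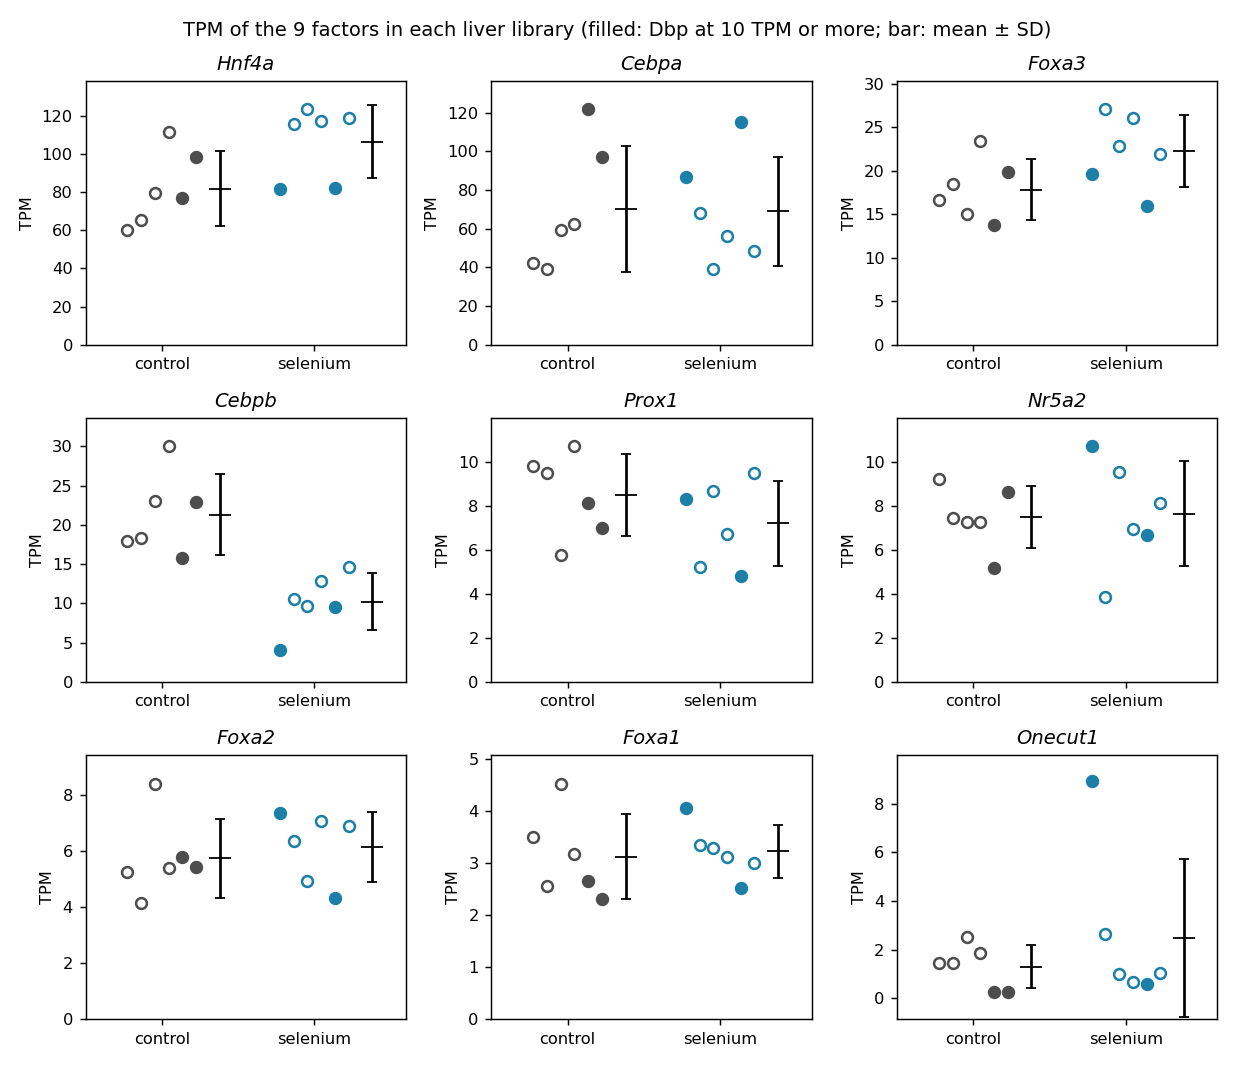
Each panel plots the TPM of a factor in the 6 control and 6 selenium libraries, ordered by replicate number, with the mean ± SD at the right of each group; filled points are the 4 libraries with Dbp at 10 TPM or more. The Cebpb points of the selenium group, 3.99 to 14.6 TPM, all lie under the lowest control at 15.8 TPM, the filled Cebpa points lie above the open ones, and a single Onecut1 point reaches 8.92 TPM.

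The question put to these data was how expression of the 9 factors differed in livers of mice given the selenium-enriched fungus. Among the 9, Cebpb stood out with a lower level in every selenium library. Hnf4a and Foxa3 had higher means, while Foxa1, Foxa2, Cebpa, Nr5a2, Prox1 and Onecut1 differed by less than the spread between mice. By limma on log2(TPM + 1), two-sided, with Benjamini-Hochberg adjustment over all 9980 tested genes, 0 of the 9 passed an adjusted p of 0.05, against 0.331% of all tested genes (2 higher and 31 lower). At an unadjusted p under 0.05 there were 2, Cebpb lower and Hnf4a higher, where 18.5% of all tested genes met the same limit. By an exact permutation test adjusted over the same genes, 0 of all tested genes passed, the 9 factors included, with 1744 at an unadjusted p under 0.05. The smallest adjusted p of any gene in that test was 0.133, so it cannot set the factors apart from other genes. The median log2 change of the 9 was 0.05 and that of all tested genes -0.03. Of the 9980 tested genes, 4529 had a positive change, the background for the counts of positive changes given below.

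**Figure D2:**
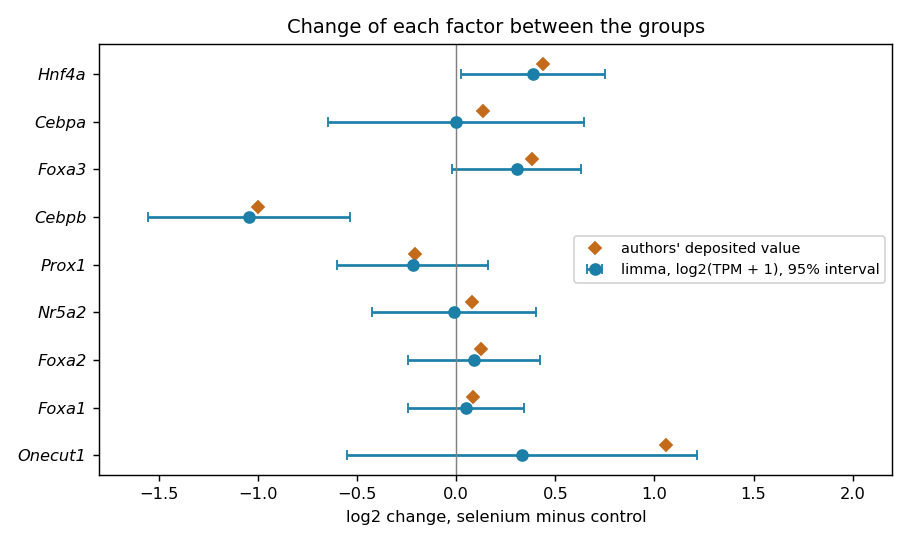
Circles give the log2 change, selenium minus control, of each factor by limma on log2(TPM + 1) with its 95% interval (n = 6 per group), and diamonds the value of the authors' deposited table. The interval of Cebpb, -1.56 to -0.53, lies wholly below 0 and that of Hnf4a, 0.02 to 0.75, just above it, while the other 7 include 0.

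Cebpb, the C/EBP factor of acute phase and fasting responses, ranged in controls from 15.8 to 30.0 TPM with a median of 20.6 TPM, and in selenium livers from 3.99 to 14.6 TPM with a median of 10.2 TPM. The groups therefore did not overlap, with 6 of 6 selenium libraries below the lowest control, as held in either direction for 1.63% of all tested genes. The means were 21.3 ± 5.14 and 10.2 ± 3.63 TPM (SD, n = 6 per group), so the control mean was 2.09 times the selenium mean. By limma the log2 change was -1.04 (SE 0.24, 95% interval -1.56 to -0.53), but the adjusted p of 0.0671 missed the threshold, which 0.311% of tested genes passed on the lower side. An exact permutation test gave 0.00216, the smallest p that 924 labellings of the libraries allow. Its adjusted p was 0.133, the smallest that any tested gene reached. The authors' deposited table gives Cebpb a log2 change of -0.999 with an adjusted p of 0.00336, where 9.87% of the same tested genes were under 0.05. Over 25 alternative settings of the comparison the log2 change ran from -1.16 to -0.83 and the adjusted p from 0.0359 to 0.168, and only with TPM rescaled without mitochondrial-encoded genes did Cebpb pass.

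The lower Cebpb values were seen at either Dbp level, though the groups differed in Nr1d1 among the 8 libraries with low Dbp. In the 4 libraries with high Dbp it was at 15.8 and 22.9 TPM in controls and 3.99 and 9.54 TPM with selenium. Among the 8 libraries with Dbp under 10 TPM its log2 change was -0.83, and with Dbp as a covariate it was -1.02 (limma adjusted p = 0.0724 and 0.0555). Without selenium 1, the lowest library, the change was -0.83. Macrophages also express Cebpb, and of the 11 Kupffer cell markers all 11 lay on the positive side, at a median log2 change of 0.37 and with 0 past the threshold. The part of macrophages in the Cebpb values was not tested. Of these markers, Cd5l stood at 14.2 ± 4.16 TPM in controls against 29.2 ± 18.6 with selenium, and Clec4f 27.1 ± 13.5 and 39.1 ± 14.0 TPM. The selenium libraries were uneven, with Cd5l from 7.78 TPM in selenium 5 to 60.2 TPM in selenium 3, against 7.74 to 20.4 TPM in controls. In the GENCODE M21 annotation the Cebpb gene, which has 1 exon, overlaps Tmem189 on the opposite strand, listed in the files as Peds1 at 2.49 to 5.28 TPM in controls and 2.62 to 5.90 TPM with selenium. No source used here says whether reads were counted by strand, so reads of the overlap cannot be told apart.

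Cebpa, the C/EBP factor of the resting hepatocyte, ranged from 39.3 to 122 TPM in controls, with a median of 60.7 TPM, and from 38.9 to 115 TPM with selenium, with a median of 62.1 TPM. The groups overlapped almost fully, and the log2 change was -0.0012 (95% interval -0.65 to 0.64, limma adjusted p = 0.999). Its values separated by Dbp instead. The 4 libraries with high Dbp held 86.6 to 122 TPM of Cebpa and the other 8 held 38.9 to 68.2 TPM, with no overlap between them and with both groups of mice on either side. Of the other 8 factors, none separated these libraries in that way. Among all tested genes, 0.210% lay higher in all 4 than in all other libraries and 0.982% lower. This separation was noticed in the data and is given as a description, with no test.

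Because the 2 C/EBP proteins bind the same DNA sequence and pair with each other, their ratio was also taken in each library. The Cebpa to Cebpb ratio of TPM was 2.08 to 7.72 in controls, with a median of 2.46, and 3.32 to 21.7 with selenium, with a median of 5.399. The highest ratios of each group belonged to libraries with high Dbp, 7.72 and 4.25 in controls 5 and 6 and 21.7 and 12.1 in selenium 1 and 5. On the log2 scale the means were 1.63 ± 0.747 and 2.76 ± 1.05, a difference of 1.13 that did not pass an exact permutation test (two-sided p = 0.0584, n = 6 per group). It passed without control 5 (1.39, exact p = 0.0195) or without selenium 6 (1.34, exact p = 0.0346), and was 0.80 without selenium 1 (exact p = 0.117). Over the 8 libraries with low Dbp, a subset picked once the data had been seen, the difference was 0.95. The 4 selenium ratios lay above the 4 control ratios (exact p = 0.0286, the smallest that 4 against 4 allows). Cebpb alone already separated these libraries, at 17.9 to 30.0 TPM in controls and 9.71 to 14.6 TPM with selenium. The ratio was therefore not a separate test there.

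**Figure D3:**
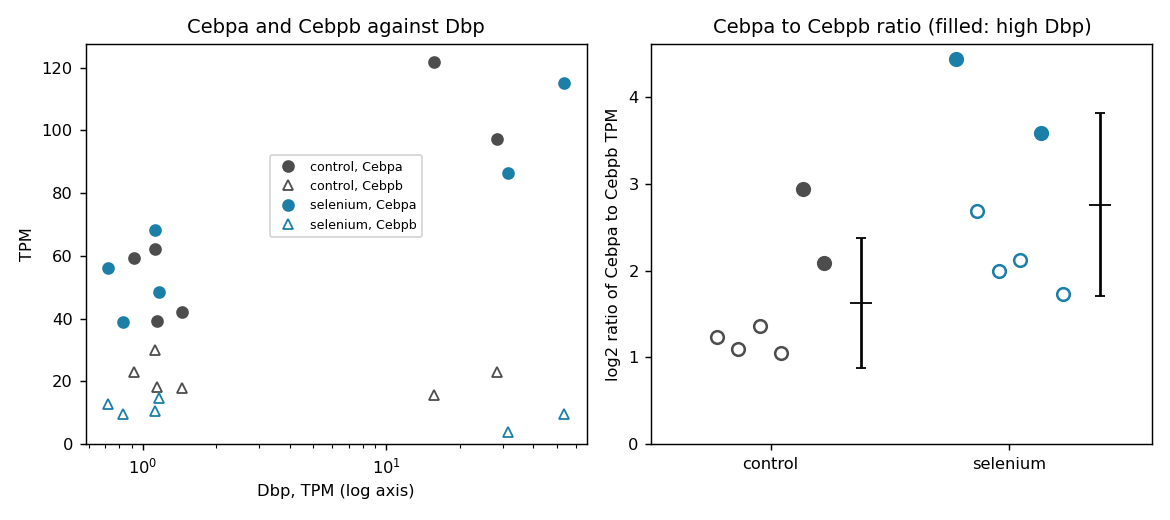
Left, TPM of Cebpa (circles) and Cebpb (triangles) against Dbp on a log axis in the 12 libraries; right, the log2 ratio of Cebpa to Cebpb per library with mean ± SD, filled where Dbp is high. Cebpa is at 86.6 TPM or more at high Dbp in both groups, Cebpb is lower with selenium at either Dbp level, and the ratio differs by 1.13 between the group means.

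Promoter sequence is shown for the 2 C/EBP genes because Cebpb is the factor the comparison turns on and Cebpa its partner. Sequences are from RefSeq on build GRCm38.p6, not the GRCm39 build named for the files, and were matched by symbol for all 9 factors, with 14 promoters. Each lies before the annotated start on the plus strand, 150 bases at chr2:167688765-167688914 for Cebpb and 250 bases at chr7:35119043-35119292 for Cebpa. Capitals mark the core of a cyclic AMP response element, TGACG, or of a C/EBP site, TTGCG, searched on both strands:
Cebpb promoter: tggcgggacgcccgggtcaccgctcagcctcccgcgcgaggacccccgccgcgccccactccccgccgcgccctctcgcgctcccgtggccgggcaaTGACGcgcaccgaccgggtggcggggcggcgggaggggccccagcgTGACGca
Cebpa promoter: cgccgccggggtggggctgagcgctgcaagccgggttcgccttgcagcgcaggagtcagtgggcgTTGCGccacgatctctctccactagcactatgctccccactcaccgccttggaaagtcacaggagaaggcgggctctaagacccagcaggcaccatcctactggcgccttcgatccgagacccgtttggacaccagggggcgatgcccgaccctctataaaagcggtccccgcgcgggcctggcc

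The Cebpb window of 250 bases held 3 matches to TGACG, of which 2 are shown, at positions -53 to -49 and -7 to -3 from the annotated start. Of 32851 RefSeq promoters, 17.8% held at least 1 such match and 0.688% held at least 3. Cebpa held 1 match to TTGCG at -185 to -181, a motif present in 14.5% of promoters. The D-box bound by Dbp, TTATGTAA, was present in 0.819% of promoters and in none of the 14 windows of these factors. A match or its absence describes these letters only.

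Hnf4a, the nuclear receptor at the centre of the network, ranged from 59.9 to 111 TPM in controls with a median of 78.2 TPM, and from 81.4 to 123 TPM with selenium with a median of 116 TPM. In 4 of 6 selenium libraries it lay above the highest control, and the 2 that did not, selenium 1 and 5 at 81.4 and 82.4 TPM, were those with high Dbp. The means were 81.8 ± 19.7 and 106 ± 19.2 TPM (SD, n = 6 per group). The log2 change was 0.39 (SE 0.17, 95% interval 0.02 to 0.75). By limma the adjusted p was 0.243, so Hnf4a did not pass, and the exact permutation p was 0.0584. The authors' deposited table gives a log2 change of 0.44 with an adjusted p of 0.0513. With TPM rescaled without mitochondrial-encoded genes the change was 0.29 (limma adjusted p = 0.327). Without control 1 it was 0.31 (limma adjusted p = 0.386). Among the 8 libraries with low Dbp the change was 0.62 (limma adjusted p = 0.107). There the 4 selenium libraries, at 116 to 123 TPM, lay above the 4 controls, at 59.9 to 111 TPM, as did 10.8% of all tested genes. In the 4 libraries with high Dbp the selenium values of Hnf4a, 81.4 and 82.4 TPM, lay between those of the controls, 77.0 and 98.2 TPM.

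Hnf4a has a pair of promoters. The upstream one, P2, is used in fetal liver and pancreas, and the downstream one, P1, in adult liver. TPM per gene does not separate their transcripts. The 150 bases before the annotated start of P2, on the plus strand of GRCm38.p6 at chr2:163506707-163506856, are printed because they hold a match to the motif of another of the 9 factors. Capitals mark the ONECUT core ATCAAT, searched on both strands:
Hnf4a P2: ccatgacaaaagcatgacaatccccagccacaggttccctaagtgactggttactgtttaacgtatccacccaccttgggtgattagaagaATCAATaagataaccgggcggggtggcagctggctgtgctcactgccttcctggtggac

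The match lies at -59 to -54 from the start, and the ONECUT core was present in 6.72% of all promoters. The forkhead core TGTTTNC (17.8%) and the HNF4A core CAAAGT (12.6%) were searched too. The window of P1, the promoter of adult liver, held no match to any of these cores. Forkhead matches lay in Prox1 and in P2 farther from the start than the bases shown. Foxa2 held ONECUT and HNF4A matches, in different windows. Foxa1 held a forkhead match on the minus strand at -141 to -135. Its HNF4A match on the plus strand, at -136 to -131, overlaps that by 2 bases.

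The FOXA factors together held 22.2 to 32.0 TPM in controls, with a median of 26.5 TPM, and 22.8 to 36.8 TPM with selenium, with a median of 31.5 TPM. Foxa3, the form most abundant in adult liver, made up 53.7 to 73.4% of that sum in controls and 63.2 to 73.6% with selenium. Foxa2, which acts in fasting lipid metabolism, made up 16.5 to 30.1% and 15.9 to 23.7%. Foxa1 made up the smallest part, 8.35 to 16.2% and 8.59 to 13.1%. The shares overlapped between the groups for all 3 genes.

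Foxa3 alone ranged from 13.7 to 23.4 TPM in controls with a median of 17.5 TPM, and from 16.0 to 27.1 TPM with selenium with a median of 22.4 TPM. The groups overlapped, with 2 of 6 selenium libraries above the highest control. By limma the log2 change was 0.30 (SE 0.15, 95% interval -0.02 to 0.63, adjusted p = 0.303). The authors' deposited table has 0.38 and an adjusted p of 0.0988 for it. With TPM rescaled without mitochondrial-encoded genes the change of Foxa3 was 0.21 (limma adjusted p = 0.404). Foxa2 was at 4.15 to 8.42 TPM in controls (median 5.42) and at 4.31 to 7.37 TPM with selenium (median 6.62). Foxa1, the pioneer factor that shares its targets with Foxa2, was at 2.30 to 4.53 TPM (median 2.92) and at 2.52 to 4.06 TPM (median 3.21). Neither showed a difference beyond the spread between mice, with 95% intervals of the log2 change of -0.24 to 0.42 for Foxa2 and -0.24 to 0.34 for Foxa1.

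Onecut1, the least abundant of the 9, was at 0.280 to 2.53 TPM in controls with a median of 1.44 TPM, and at 0.580 to 8.92 TPM with selenium with a median of 1.03 TPM. A single library, selenium 1, held the 8.92 TPM, and the next was selenium 2 at 2.63 TPM. Controls 5 and 6, the controls with high Dbp, both held 0.280 TPM. The log2 change of 0.33 (95% interval -0.55 to 1.21, limma adjusted p = 0.707) became -0.04 without selenium 1. The direction of the means, 1.30 ± 0.887 and 2.47 ± 3.24 TPM, therefore rested on that library. Its paralogue Onecut2 averaged 2.76 ± 0.212 and 2.44 ± 0.794 TPM.

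Nr5a2, the receptor that binds DNA as a monomer, was at 5.16 to 9.21 TPM in controls (median 7.37) and at 3.87 to 10.7 TPM with selenium (median 7.54). Its selenium values reached past the controls on both sides, and the log2 change was -0.01 (95% interval -0.42 to 0.40). Prox1 was at 5.75 to 10.7 TPM in controls (median 8.82) and at 4.81 to 9.47 TPM with selenium (median 7.50), with 2 of 6 selenium libraries below the lowest control. Its log2 change was -0.22 (95% interval -0.60 to 0.16, limma adjusted p = 0.539). Prox1 also marks lymphatic endothelium, whose 7 markers summed to 5.81 to 15.3 TPM in controls and 3.58 to 12.01 TPM with selenium. It overlaps Prox1os on the opposite strand, which was at 2.83 to 4.74 and 2.66 to 5.55 TPM. The part of these transcripts in its values was not tested.

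Correlations between the factors were taken over all 12 libraries and, because the group means differ, also after subtracting the mean of each group. Of the 36 pairs, 15 had a positive Pearson r of log2(TPM + 1) over the 12 libraries with a median r of -0.05, and 18 had a positive group-centred r with a median of -0.0025. Over the 12 libraries 0 pairs passed after Benjamini-Hochberg adjustment of permutation p-values, with 3 at an unadjusted p under 0.05. Hnf4a and Foxa3 had the highest r, 0.78 (permutation p = 0.00384, adjusted 0.0767), with Spearman's rho of 0.76 (permutation p = 0.00562, adjusted 0.101). Without the 2 libraries farthest from the median of Hnf4a, controls 1 and 2, r was 0.89, and within the groups it was 0.60 in controls and 0.81 with selenium. Foxa1 and Onecut1 had r = 0.75 (permutation p = 0.00426, adjusted 0.0767) and rho = 0.79 (permutation p = 0.00329, adjusted 0.101). Without controls 3 and 6, the farthest from the median of Foxa1, r was 0.77. That choice keeps selenium 1, the library with the highest Onecut1. Within controls r was 0.80. Foxa1 and Foxa2 had r = 0.71 (permutation p = 0.0111, adjusted 0.133) and rho = 0.52 (permutation p = 0.0844), with r = 0.62 without controls 3 and 6. Cebpb and Onecut1 had r = -0.49 (permutation p = 0.11) and rho = -0.02 (permutation p = 0.952), and r was 0.04 without control 4 and selenium 1. The pairs most altered by centring involved Cebpb. Hnf4a and Cebpb had r = -0.07 over all libraries but 0.70 after centring, with 0.80 in controls and 0.73 with selenium. Foxa3 and Cebpb had -0.14 over all libraries and 0.50 after centring. Hnf4a and Cebpa had -0.06 over all libraries, with 0.52 in controls and -0.90 with selenium. These within-group values, each over 6 libraries, are descriptions and were not tested.

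**Figure D4:**
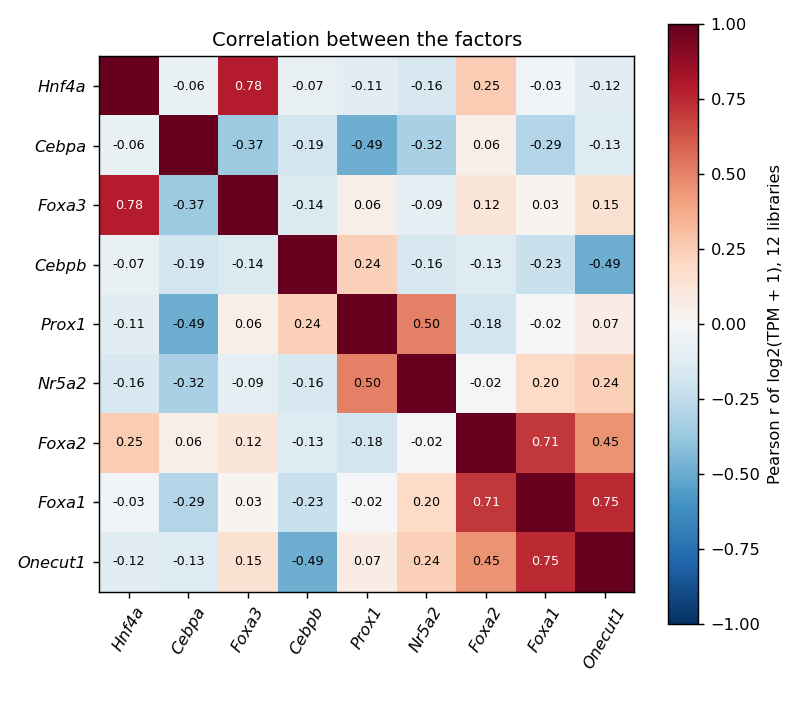
Each cell gives the Pearson r of log2(TPM + 1) between 2 factors over the 12 libraries, with red for positive and blue for negative values and the factors in order of mean level. The strongest cells are Hnf4a with Foxa3 at 0.78, Foxa1 with Onecut1 at 0.75 and Foxa1 with Foxa2 at 0.71, and the other pairs run from -0.49 to 0.50; Hnf4a with Cebpb, -0.07 here, is 0.70 after subtracting group means.

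The genes most like each factor were taken as the 2 with the highest r over the 12 libraries among 5262 tested genes with a mean of at least 5 TPM, so that high values arise from the choice itself. For Hnf4a they were Mat1a, the liver enzyme that makes S-adenosylmethionine (r = 0.91), and Herpud1, of endoplasmic reticulum protein degradation (0.91). For Cebpb they were the sulfotransferase Sult1a1 (0.95) and the corepressor Irf2bp2 (0.93). Cebpa was closest to Tns2 (0.88) and Cyp2c23 (0.86), Foxa3 to Supt6 (0.93) and Prcc (0.92), Nr5a2 to Oxr1 (0.94) and Tent4b (0.94), and Prox1 to Mtpap (0.90) and Hsf2 (0.88). Onecut1 was closest to Plcxd2 (0.86) and Slc25a30 (0.85), Foxa1 to Slc25a30 (0.86) and Tceanc2 (0.78), and Foxa2 to Mrpl46 (0.77) and Cinp (0.73).

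Factors that work with the 9 were examined as a list of 36, of which 34 were tested and 0 passed by limma. The log2 change was above 0 for 15 of them, the median was -0.07, and 7 were higher and 5 lower at an unadjusted p under 0.05, which 18.5% of all tested genes met (700 higher and 1142 lower). Rxra, the partner with which many liver nuclear receptors pair, stood at 31.9 ± 10.4 TPM in controls against 46.1 ± 8.82 with selenium (log2 change 0.55, adjusted p = 0.169). Nfia and Nfib, of the nuclear factor I family, stood at 4.64 ± 0.894 and 3.38 ± 0.358 TPM and at 6.08 ± 0.944 and 4.54 ± 0.620 TPM (both adjusted p = 0.148). The bile acid receptor Nr1h4 (39.2 ± 4.203 and 36.8 ± 10.5 TPM), its target and corepressor Nr0b2 (32.6 ± 9.39 and 25.4 ± 6.93 TPM), Hhex (34.3 ± 20.8 and 35.1 ± 7.94 TPM), Gata4 (2.64 ± 0.213 and 2.75 ± 0.175 TPM) and Cebpg (7.09 ± 1.33 and 7.17 ± 2.06 TPM) had adjusted p from 0.396 to 0.989. Cebpd, the third C/EBP factor of the acute phase, was below the filter, at 0.620 to 2.17 TPM in controls (median 1.27) and 0.260 to 1.23 TPM with selenium (median 0.76).

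Genes known as targets of the 9 were listed from general knowledge, and a gene may stand on several lists. For HNF4A, 0 of 33 tested targets passed, 17 had a positive change and the median was 0.02. The urea cycle enzyme Otc was at 197 ± 15.8 and 149 ± 23.2 TPM (-0.41, limma adjusted p = 0.121), so its values lay lower with selenium while Hnf4a itself lay higher. For FOXA, 0 of 19 passed with 8 positive and a median of -0.13, and the bile salt exporters Abcb11 and Abcc2 were at 127 ± 13.9 and 99.9 ± 9.56 TPM and at 68.0 ± 9.91 and 53.0 ± 5.78 TPM. For C/EBP-alpha, 0 of 21 passed with 10 positive and a median of -0.02, and Serpina1a, alpha-1-antitrypsin, was at 5286 ± 1121 and 6981 ± 1572 TPM (adjusted p = 0.253), a gene whose reads near-identical copies can share.

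Acute phase genes, known to respond to C/EBP-beta, lay on both sides of 0. Of 28 tested, 17 had a positive and 11 a negative change, the median was 0.12, and 0 passed by limma. Without adjustment, 3 higher and 0 lower genes of the list had p under 0.05, a limit that 18.5% of all tested genes met. Selenium 3 and control 5 stood apart, with the serum amyloid gene Saa1 at 8641 and 4541 TPM against 62.6 to 1020 TPM in the other 10 libraries. Stat3, the transcription factor of interleukin 6 signalling, stood at 10.04 ± 1.79 TPM in controls against 16.7 ± 6.32 with selenium (log2 change 0.61, adjusted p = 0.188), and the protease inhibitor Serpina3n 172 ± 47.2 and 284 ± 108 TPM (0.67, adjusted p = 0.201). Selenium 3 also held the highest Stat3, 26.6 TPM, and the highest Serpina3n, 449 TPM. Without selenium 3 the change of Stat3 was 0.46.

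Target lists of the remaining factors were similar in extent. For ONECUT1, 0 of 15 passed with 6 positive and a median of -0.15, and the cell cycle inhibitor Cdkn1b, at 9.54 ± 1.91 and 6.75 ± 0.677 TPM, had groups that did not overlap (adjusted p = 0.112), as held for 1.63% of all tested genes. For NR5A2, 0 of 21 passed with 11 positive and a median of 0.02, and Bhmt, of homocysteine metabolism, was at 1773 ± 294 and 1323 ± 138 TPM (adjusted p = 0.139). Bile acid synthesis, which HNF4A and NR5A2 promote and PROX1 restrains, had 7 of 10 changes positive, a median of 0.07, and 1 gene past the threshold. Akr1d1, the steroid 5-beta-reductase, fell from 53.9 ± 5.29 to 32.9 ± 5.80 TPM (log2 change -0.71, limma adjusted p = 0.0414). With 1 library removed at a time, Akr1d1 kept an adjusted p under the threshold in 2 of 12 cases (control 6 or selenium 6 removed), and the adjusted p reached 0.0949 in the rest.

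**Figure D5:**
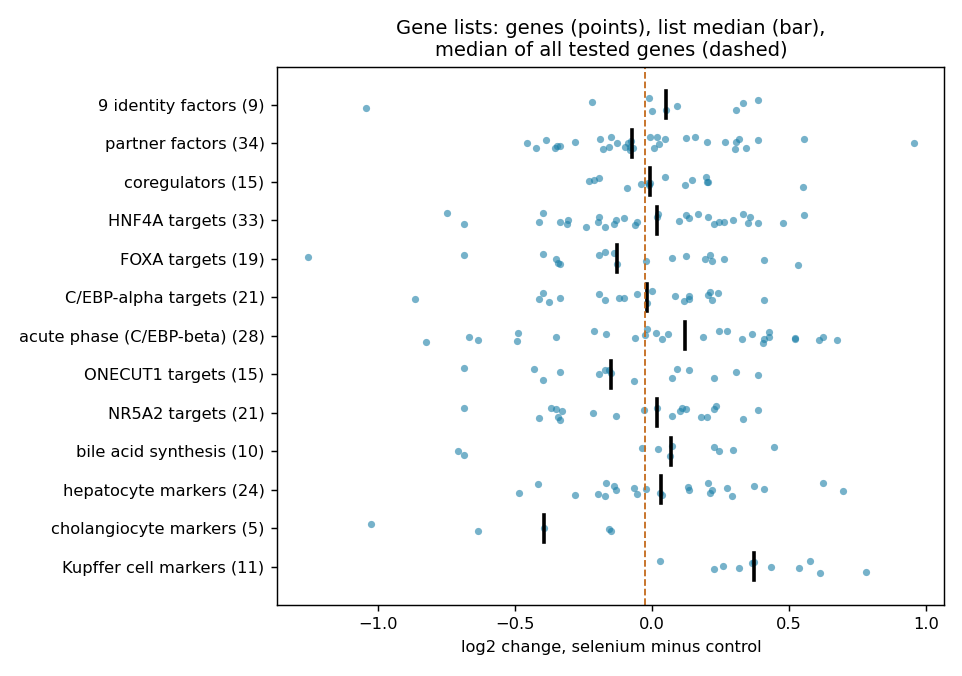
Points are the log2 changes, selenium minus control, of the tested genes of each list (number in brackets), bars the list medians, and the dashed line the median of all tested genes, -0.03. The factors, their partners and their target lists spread on both sides of that line with medians from -0.15 to 0.12, while the 5 bile duct markers lie below it and the 11 Kupffer cell markers above it.

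Markers of hepatocytes themselves, many of them targets of these factors, had 13 of 24 changes positive, a median of 0.03 and 0 past the threshold. Cyp2c29, a cytochrome P450 of drug metabolism, was at 487 ± 230 and 704 ± 65.1 TPM (adjusted p = 0.241). Of the 13 bile duct markers, 5 were tested, and all 5 had a negative change with a median of -0.40 and 0 past the threshold. Tff3 averaged 5.25 ± 3.97 and 1.24 ± 0.489 TPM, and Sox9, a transcription factor of bile duct cells, 1.65 ± 0.706 and 1.06 ± 0.811 TPM. The part of bile duct cells in the values of Foxa1, Foxa2 and Onecut1 was not tested.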

How the data were processed

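The build GRCm39 and the tools DESeq2, RSEM 1.2.8 and HISAT2 2.1.0 are named, without their roles, per the submitters' processing notes. The authors deposited TPM per gene and library, so depth and counting error are unknown. Their table also holds a deposited log2 fold change, printed here as selenium minus control, and deposited p-values, raw and adjusted, from a test not given in the sources used here. Series and single-library values were equal in 100% of cases.

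Genes with at least 1 TPM in 6 or more libraries were tested on log2(TPM + 1) in limma 3.58.1 (R 4.3.3) with an intensity trend and no covariate. Tests were two-sided, and 0.05 was the limit for p-values adjusted by Benjamini and Hochberg. Changes of low genes are understated by the pseudocount. The procedure was tested on simulated data. Exact tests used all labellings, and correlations 100000 permutations. The factors and the 24 gene lists, the factors among them, were chosen with earlier results of these data known. All 9 factors were named. From each list, up to 4 genes past the threshold were named, or the 2 with the smallest p where none passed, besides a set of partner factors and the genes most like each factor; a few genes so chosen are not reported here. Alternatives were other pseudocounts (0.1 and 0.5), filters, scalings and limma settings, Dbp as a covariate, a replicate block, leaving out each library and, added once the data had been seen, only the 8 low-Dbp libraries. Promoter windows held the 250 bases before each start.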

Additional observations from a re-analysis of the deposited data

Results flagged for a closer look

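In Onecut1, selenium 1 held 8.92 TPM, far above the other 5 selenium libraries at 0.580 to 2.63 TPM. The gap to the next library was 0.754 of the range of the group, beyond Dixon's limit for 6 samples. Of 20 groups of values examined in this way, 1 stood out, and chance alone marks about 1 in 20. The same library had the lowest Cebpb, 3.99 TPM, and the highest Nr5a2, 10.7 TPM, of the 12.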

How the results depend on the processing

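Hnf4a, Foxa2, Foxa3, Cebpb and Prox1 kept their direction under all 25 alternatives. Among these, the filters, the limma settings, the replicate block and the exact test cannot move the log2 change, so only p could differ there. None of these 5 factors passed except Cebpb with TPM rescaled without mitochondrial-encoded genes (-1.15, limma adjusted p = 0.0359). With that rescaling 1 of the 9 factors and 191 of all genes passed. The count of all genes past the threshold was 1 without a filter, 12 with quantile normalization and 56 with robust empirical Bayes, and leaving out 1 library gave 7 (control 2) to 171 (control 6), within 1.5 times of 33 only without control 3 (22) or selenium 6 (31). The split was 6 higher and 24 lower with median-of-ratios scaling, 2 and 10 with quantile normalization, 56 and 115 without control 6, and 34 and 13 in the 8 libraries with low Dbp, a setting chosen after the data were seen. The cause of these shifts was not tested. Changes near 0 turned sign: Foxa1 was -0.024 with TPM rescaled and -0.066 in the 8 libraries with low Dbp, Cebpa 0.019 with median-of-ratios scaling and 0.060 with low Dbp, and Nr5a2 0.0071 and 0.031 with median-of-ratios scaling and quantile normalization. Onecut1, whose change was not near 0, also turned sign, from 0.33 to -0.32 with low Dbp. With 1 library left out the changes ran from -0.010 to 0.14 (Foxa1), -0.17 to 0.18 (Cebpa), -0.11 to 0.14 (Nr5a2) and -0.044 to 0.49 (Onecut1). Among partner factors, Cebpg was 0.011 and 0.027 with median-of-ratios scaling and quantile normalization, Gata4 -0.026 with TPM rescaled, and Gata4 -0.011 and Hhex -0.15 with low Dbp. With 1 library left out, Cebpg ran from -0.11 to 0.075.

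The Cebpa to Cebpb ratio differed by 0.80 to 1.39 with 1 library left out. It passed the exact permutation test without control 5 (1.39, p = 0.0195) or selenium 6 (1.34, p = 0.0346). It also passed at 0.95 with low Dbp, a subset picked after the data were seen in which Cebpb alone separates the groups. The labels do not say whether same-numbered libraries are paired. Their deviations from the group means correlated between -0.136 and 0.107, and 1 of 6 was closest to its own number, which cannot decide it. With the replicate block 3 genes passed and none of the 9 factors, with an adjusted p of 0.0948 for Cebpb; the ratio was 1.13 (exact p = 0.0625). Onecut1 and Foxa1 were not tested at the filter of 5 TPM.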

Other observations

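Genes listed as coregulators or regulators of these factors had 7 of 15 log2 changes positive, a median of -0.01 and 0 past the threshold by limma. Trib1, which targets C/EBP-alpha for degradation, stood at 4.73 ± 2.31 TPM in controls against 6.85 ± 0.871 with selenium (log2 change 0.55, adjusted p = 0.222), and the Mediator subunit Med1 at 4.38 ± 0.426 and 3.65 ± 0.462 TPM (-0.21, adjusted p = 0.286). Genes of fetal or dedifferentiated liver had 1 of 7 tested changes positive and a median of -0.40, with Cdh1, which bile duct cells also express, at 1.91 ± 0.794 and 1.19 ± 0.278 TPM.

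Zonation genes, which differ between hepatocytes near the portal and the central vein, had 6 of 17 positive with a median of -0.30 on the periportal list and 6 of 14 with a median of -0.05 on the pericentral list, and 0 passed on either. The periportal Gls2 and Arg1 stood at 86.3 ± 7.75 and 69.5 ± 13.8 TPM and at 636 ± 151 and 485 ± 81.1 TPM, and the pericentral Lect2 and Rnf43 at 238 ± 91.5 and 148 ± 22.8 TPM and at 2.13 ± 0.509 and 2.91 ± 0.467 TPM.

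Of the other cell types and controls listed, stellate cell markers had 0 of 9 changes positive (median -0.31), with Hand2 at 1.34 ± 0.240 and 0.820 ± 0.143 TPM and Dcn at 42.1 ± 9.98 and 28.9 ± 8.13 TPM. Sinusoidal endothelial markers had 4 of 9 positive (median -0.15), with Egfl7 at 8.25 ± 4.24 and 5.198 ± 1.28 TPM and Fcgr2b at 10.2 ± 4.45 and 6.58 ± 2.99 TPM. Erythroid markers had 1 of 5 positive (median -0.43), and 2 lymphatic, 2 lymphocyte and 1 pancreatic gene were tested. None of the genes on these cell type lists passed. Clock genes had 7 of 13 positive (median 0.02), with Nr1d1 at 9.26 ± 11.9 and 17.3 ± 9.38 TPM and Cry1 at 5.80 ± 3.55 and 3.09 ± 0.489 TPM and 0 past the threshold. All 13 mitochondrial mRNAs were negative (median -0.60), and mt-Atp6 passed (5524 ± 919 and 3252 ± 411 TPM, adjusted p = 0.0439), with adjusted p from 0.0273 to 0.111 when 1 library was left out.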
